A study of Mus musculus with 6 samples.

Results

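The iron and metallothionein genes described here are the ferritin subunit genes Fth1 and Ftl1, the transferrin receptor gene Tfrc, the iron exporter gene Slc40a1, the phagosomal metal transporter gene Slc11a1, the regulator gene Ireb2 and the metallothionein genes Mt1 and Mt2. They were chosen by symbol, and all 8 were found among the 31053 genes of the expression matrices. Living CD45+ leukocytes had been sorted from mouse brain for single-cell RNA sequencing with a chemistry that reads the 3′ end of transcripts and counts molecules by unique molecular identifiers (UMIs). There were 6 libraries, 1 for each combination of 2 genotypes and 3 times, and each was a pool of 3 brains. The mice were Cd300a-fl/fl with Cre recombinase driven by the Lyz2 gene of myeloid cells, called Lyz2-cre here, or Cd300a-fl/fl alone, called fl/fl. All were of the C57BL/6 strain and carried the floxed Cd300a allele, and no age is stated for them. Mice of the 1 h and 3 h groups had a filament in the right internal carotid artery for 60 min to occlude the middle cerebral artery, and were taken that long after the filament was withdrawn and blood flow returned. The earliest group is called naive in the sample titles and 0 h in the series design, and the titles were followed.

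Ferritin is the shell in which cells store iron, with a heavy subunit that oxidises iron and a light subunit that helps to mineralise it. The transferrin receptor brings iron into cells and ferroportin, the product of Slc40a1, is the exporter that lets it out, while macrophages also recover iron from the red cells they take up. Iron regulatory proteins, of which Ireb2 encodes a member, bind a hairpin called the iron responsive element when iron is scarce, blocking translation where it lies in a 5′ untranslated region and stabilising the transcript where it lies in a 3′ untranslated region. Metallothioneins are small cysteine-rich proteins that bind zinc and copper, and their genes are switched on by zinc, glucocorticoids and oxidants through the factor MTF1 and others. None of this regulation was measured here, since the data are transcript counts.

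The hairpins are shown because they divide the members into those with a 5′ element, those with 3′ elements and those with none. Each was read from GENCODE transcripts on GRCm38 as 23 bases, with the 6-base loop in capitals (CAGTGN), a C unpaired on the 5′ side and 5 base pairs of stem below the loop.
Fth1 5′ untranslated region, chr19:9982735-9982757, plus strand: ctgcttcaaCAGTGCttgaacgg
Ftl1 5′ untranslated region, chr7:45459782-45459804, minus strand: ttgcttcaaCAGTGTttgaacgg
Slc40a1 5′ untranslated region, chr1:45925468-45925490, minus strand: cttcagctaCAGTGTtagctaag
Tfrc 3′ untranslated region, chr16:32631222-32631244, plus strand: tatcggaagCAGTGCcttccata
Tfrc 3′ untranslated region, chr16:32631601-32631623, plus strand: tatcgggagCAGTGTcttccata
Tfrc 3′ untranslated region, chr16:32631666-32631688, plus strand: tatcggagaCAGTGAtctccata
Tfrc 3′ untranslated region, chr16:32631713-32631735, plus strand: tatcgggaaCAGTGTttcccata
The stems of Fth1 and Ftl1 have the same letters, whereas Slc40a1 has another stem around the loop that Ftl1 also has. Tfrc held 4 such matches and each of the other 3 genes held 1. A hairpin of this form was found in an untranslated region of 123 of 21901 protein-coding genes (0.562%). No match was found in the untranslated regions of Slc11a1, Ireb2, Mt1 or Mt2.

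Mt1 and Mt2 are neighbours on chromosome 8, at 94179082 to 94180327 and 94172664 to 94173568 on the plus strand. The core of the metal response element that MTF1 binds (TGCACNC or TGCGCNC, searched on both strands) is shown for the 250 bases before each gene's start in RefSeq on GRCm38.p6, with the core in capitals.
Mt1, chr8:94179058-94179080: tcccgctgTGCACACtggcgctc
Mt2, chr8:94172387-94172409: atcgcctcTGCACCCggcccctc
Mt2, chr8:94172482-94172504: agacccttTGCGCTCagctcctt
Mt2, chr8:94172560-94172582, core on the minus strand: gggagggcGTGTGCAggctctgt
At least 1 match was found in 21.4% of 32851 RefSeq promoters, and at least 3 matches in 1.26%. In the first 150 bases of the GENCODE transcript that starts furthest upstream, within its first exon, Mt1 held 4 matches and Mt2 held 3. At least 3 matches were seen in the first 150 bases of the longest transcript in 0.504% of 21835 protein-coding genes. The 2 windows were thus chosen by different rules. Of the other members, Tfrc had 2 overlapping matches before the start in 1 of its 2 RefSeq entries, Fth1, Ftl1, Slc11a1 and Ireb2 had none, and the table holds no entry for Slc40a1. These matches describe letters and are not measured binding sites.

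The libraries held between 35479437 and 48478866 UMIs, and 47103 cells were used, with a median of 3903.5 to 5225 UMIs per cell. The same barcode sequence occurred in more than 1 library for 265 of the used barcodes. Cells were clustered without the 8 genes and without the pathway genes described further on, and clusters were named from markers. Microglia are the macrophages that live in brain tissue, and cells like them numbered 5722, 7025 and 7324 in Lyz2-cre mice in the naive state, at 1 h and at 3 h, and 5568, 6880 and 4748 in fl/fl mice. All 10 microglia markers were detected in each of these sums, and together they stood at 32074, 38484 and 23118 UMIs for every 1000000 UMIs of the class (CPM) in Lyz2-cre mice and at 30742, 34707 and 19885 CPM in fl/fl mice, with the lowest levels at 3 h. Cd300a, the floxed gene, stood at 16.1, 9.94 and 9.85 CPM in Lyz2-cre neutrophil-like cells and at 175, 256 and 128 CPM in fl/fl ones, a log2 difference of -3.84 (adjusted p = 2.07e-05). In microglia-like cells the Cd300a difference was -0.38 (adjusted p = 0.0339). The 3′ tags need not lie in the deleted exons, whose identity the sources used here do not state.

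With 1 library per genotype and time, UMIs were summed per library and class and fitted with edgeR's quasi-likelihood test on time and genotype together. A time effect is therefore a weighted average over both genotypes, which need not have moved alike. Effects are log2 fold changes ± standard error, and p-values are adjusted by the Benjamini-Hochberg method over all genes tested in the class, with 0.05 as the threshold. The p-values judge time or genotype effects against a spread estimated from departures from additivity among 6 pools, since no group has a second library. The fit also draws each gene's spread towards that of all genes. Beside 2 residual degrees of freedom, the median prior ones ran from 8.03 in microglia-like to 10.3 in T cell-like cells. They were 73.2 in NK cell-like and infinite in B cell-like cells. In every tested class they exceeded the residual ones, so for a typical gene the p-value rests mainly on the spread shared by all genes. The 1 h and 3 h comparisons share the naive libraries. Levels in CPM are shares of a class's UMIs, and intervals on them cover counting error only.

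In microglia-like cells Fth1, the heavy ferritin gene, rose at both times and the light chain gene Ftl1 rose at 3 h. Tfrc, Slc40a1, Mt1 and Mt2 also rose at 3 h. Slc11a1 rose and Ireb2 fell at 1 h, and neither differed from naive mice beyond the threshold at 3 h. At 1 h, 3 of the 8 genes passed the test (2 higher, 1 lower), where 26.7% of the 12813 genes tested in the class passed it. At 3 h, 6 of 8 passed, all higher, where 47.6% of all genes passed and 24.4% were higher. For 3 h against 1 h, 6 of 8 passed (5 higher, 1 lower), where 47.5% of all genes passed. DESeq2 called 4 of the 8 at 1 h, 6 at 3 h and 8 for 3 h against 1 h. The shares of all genes here are those of edgeR, so the DESeq2 counts lack theirs and are no result about the members. The cells of this class fell in different clusters at different times. Cluster 1 held 58.7%, 2.05% and 0.382% of them in Lyz2-cre mice in the naive state, at 1 h and at 3 h, and 55.2%, 1.25% and 0.316% in fl/fl mice. Cluster 0 held 36.2%, 0.37% and 0.0683% in Lyz2-cre mice and 37.0%, 0.145% and 0.0421% in fl/fl mice. The part of this shift in the class-level changes was not tested.

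**Figure D1:**
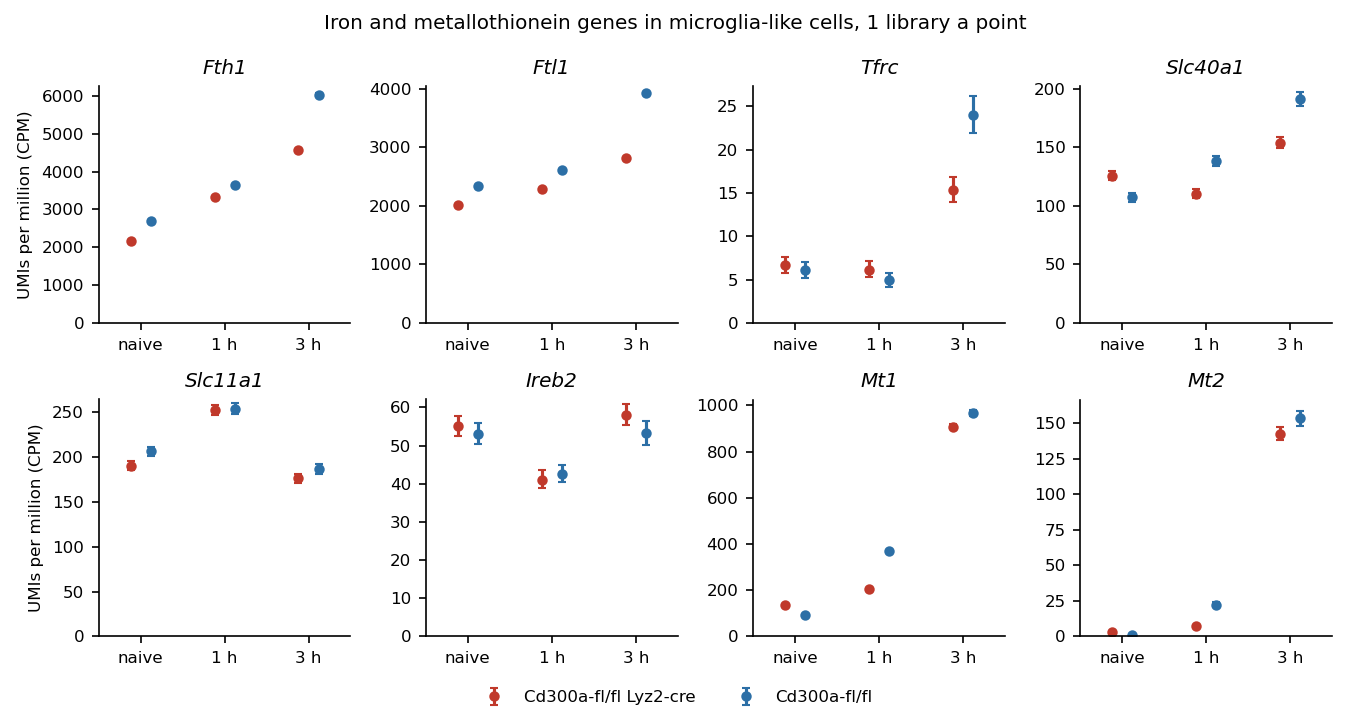
Levels of the 8 genes in microglia-like cells, in CPM of the class (linear axes from 0), by time after reperfusion; each point is 1 library (red Lyz2-cre, blue fl/fl) and bars are exact 95% Poisson intervals for counting error. Fth1, Mt1 and Mt2 have no overlap between the 3 times, whereas Slc11a1 is highest and Ireb2 lowest in the libraries taken at 1 h.

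Fth1 stood at 2174, 3329.9 and 4582 CPM in Lyz2-cre microglia-like cells in the naive state, at 1 h and at 3 h, and at 2701, 3652 and 6034 CPM in fl/fl ones. The libraries of the 3 times did not overlap, and the fl/fl library was the higher of its pair each time. The change was 0.64 ± 0.11 (adjusted p = 0.00327) at 1 h and 1.20 ± 0.11 (adjusted p = 3.59e-05) at 3 h against naive mice, and 0.57 ± 0.11 (adjusted p = 0.00233) for 3 h against 1 h. The 3 h rise passed the threshold in each fit that left out 1 library, but the 1 h rise did not without the fl/fl naive library (adjusted p = 0.0952) or without the Lyz2-cre naive library (adjusted p = 0.118). With time alone in the model the adjusted p of the 1 h rise was 0.0659.

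Ftl1 stood at 2022, 2296 and 2817 CPM in Lyz2-cre mice and at 2343, 2612 and 3926 CPM in fl/fl mice, in the same order of times. The 1 h libraries overlapped the naive ones, while both 3 h libraries lay above the other 4. Its change was 0.28 ± 0.11 (adjusted p = 0.0945) at 1 h and 0.70 ± 0.11 (adjusted p = 0.000861) at 3 h. The 3 h level exceeded that at 1 h by 0.42 on the log2 scale (adjusted p = 0.0121). That call was lost with time alone in the model (adjusted p = 0.122) and in fits lacking either naive library or the fl/fl library of 1 h or of 3 h (adjusted p from 0.081 to 0.138). Without the fl/fl naive library the 3 h adjusted p was 0.0777, and the 1 h change passed without either 3 h library (adjusted p = 0.0221 without Lyz2-cre 3 h and 0.0162 without fl/fl 3 h). Ftl1-ps1, an annotated copy on chromosome 13, matched Ftl1 at 269 of 272 aligned bases near the 3′ end (98.9%) and stood at 26.4, 32.8 and 26.7 CPM in Lyz2-cre mice and 33.0, 40.1 and 35.6 CPM in fl/fl mice. How reads that match both copies were divided or dropped cannot be seen in the counts, so levels of Ftl1 are uncertain.

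Counted in UMIs, Fth1 gained on Ftl1 with time in microglia-like cells. The ratio of Fth1 to Ftl1 UMIs was 1.08, 1.45 and 1.63 in Lyz2-cre mice in the naive state, at 1 h and at 3 h, and 1.15, 1.4 and 1.54 in fl/fl mice. The ratio had the same order of times in both genotypes, and it was not tested.

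Tfrc, the gene of the receptor that takes up transferrin-bound iron, was sparse, with 203, 177 and 451 UMIs in Lyz2-cre microglia-like cells and 171, 150 and 500 in fl/fl ones in the naive state, at 1 h and at 3 h. These counts make 6.66, 6.12 and 15.3 CPM in Lyz2-cre mice and 6.10, 4.94 and 24.1 CPM in fl/fl mice. Naive and 1 h libraries overlapped and both 3 h libraries were above them. The 3 h change was 1.69 ± 0.26 (adjusted p = 0.00331) against naive and 1.79 ± 0.26 (adjusted p = 0.00277) against 1 h, and the 1 h change was -0.10 ± 0.28 (adjusted p = 0.822). Without the fl/fl naive library the rise at 3 h over naive was 1.47 (adjusted p = 0.0563).

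Slc40a1, the ferroportin gene, stood at 126, 110.3 and 154 CPM in Lyz2-cre microglia-like cells and at 107, 138 and 192 CPM in fl/fl ones. Both 3 h libraries were above the rest, and at 1 h the Lyz2-cre library was below and the fl/fl library above its own naive library. The change was 0.19 ± 0.14 (adjusted p = 0.392) at 1 h, 0.64 ± 0.14 (adjusted p = 0.0119) at 3 h and 0.45 ± 0.14 (adjusted p = 0.0404) for 3 h against 1 h. Without the fl/fl naive library the 3 h change was 0.34 (adjusted p = 0.0602), a smaller value by more than 1.5 times. The 3 h against 1 h call was lost without the Lyz2-cre 1 h library (adjusted p = 0.206) and without the fl/fl 1 h library (adjusted p = 0.0705).

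Slc11a1, whose product Nramp1 moves divalent metals out of phagosomes, moved the other way in time. It stood at 191, 253 and 177 CPM in Lyz2-cre mice and at 207, 254 and 187 CPM in fl/fl mice. Both 1 h libraries were above the other 4 and agreed within their counting intervals. The change was 0.46 ± 0.08 (adjusted p = 0.00347) at 1 h, -0.05 ± 0.08 (adjusted p = 0.663) at 3 h and -0.51 ± 0.08 (adjusted p = 0.000812) for 3 h against 1 h. The call at 1 h against naive was lost without fl/fl naive (adjusted p = 0.0602), Lyz2-cre naive (adjusted p = 0.0813) or Lyz2-cre 1 h (adjusted p = 0.0612), and the 3 h against 1 h call held in all 6 such fits.

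Ireb2, which encodes iron regulatory protein 2, stood at 55.0, 41.1 and 58.1 CPM in Lyz2-cre microglia-like cells and at 53.1, 42.6 and 53.3 CPM in fl/fl ones. The 1 h libraries were the lowest pair, and the 3 h libraries overlapped the naive ones. Its change was -0.26 ± 0.08 (adjusted p = 0.0351) at 1 h, 0.12 ± 0.08 (adjusted p = 0.221) at 3 h and 0.39 ± 0.08 (adjusted p = 0.00316) for 3 h against 1 h. The 1 h fall missed the threshold under DESeq2 (adjusted p = 0.211) and in the 4 fits that each lacked a naive or a 1 h library, with adjusted p from 0.157 without fl/fl naive to 0.292 without Lyz2-cre 1 h. The 3 h against 1 h rise was lost only without Lyz2-cre 1 h, of the 6 such fits (adjusted p = 0.0625).

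The metallothionein genes had the largest fold changes of the 8. Mt1 stood at 135, 205 and 908 CPM in Lyz2-cre microglia-like cells and at 90.7, 369 and 967 CPM in fl/fl ones, in the naive state, at 1 h and at 3 h. Mt2 stood at 3.35, 7.02 and 143 CPM in Lyz2-cre mice and at 1.32, 22.2 and 153 CPM in fl/fl mice. For both genes the 3 times did not overlap, and fl/fl was the lower library of the naive pair and the higher of the 1 h pair.

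Mt1 changed by 3.12 ± 0.44 (adjusted p = 0.0187) at 3 h and Mt2 by 6.03 ± 0.90 (adjusted p = 0.0359). At 1 h the values were 1.41 ± 0.42 (adjusted p = 0.123) for Mt1 and 2.63 ± 0.94 (adjusted p = 0.201) for Mt2, neither past the threshold with edgeR. DESeq2 called the 1 h changes (adjusted p = 0.0166 for Mt1 and 0.0265 for Mt2). For 3 h against 1 h, Mt1 gave 1.71 ± 0.41 (adjusted p = 0.0588) and Mt2 gave 3.40 ± 0.74 (adjusted p = 0.0685), and DESeq2 called both (adjusted p = 0.00162 and 0.00154). The 3 h calls over naive were lost with edgeR and no filter on low counts (adjusted p = 0.0567 for Mt1 and 0.0523 for Mt2). They were also lost without fl/fl 3 h (adjusted p = 0.288 for Mt1 and 0.247 for Mt2) and without Lyz2-cre 3 h (adjusted p = 0.279 and 0.252). Mt2 alone was lost without fl/fl naive (adjusted p = 0.054). Over the 6 fits that left out 1 library, the log2 change at 3 h ran between 2.61 and 3.65 for Mt1 and between 5.16 and 7.25 for Mt2. The ratio of Mt1 to Mt2 UMIs was 40.4, 29.2 and 6.37 in Lyz2-cre mice and 68.7, 16.6 and 6.31 in fl/fl mice, lowest at 3 h in both.

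Across all 12813 genes the median change in microglia-like cells was -0.01 at 1 h and -0.02 at 3 h. Scaling by library totals alone, without TMM factors, moved the 1 h median to -0.12 and the split of called genes to 1104 higher and 2484 lower, against 1789 higher and 1634 lower with TMM. The same 3 of the 8 genes passed at 1 h and the same 6 at 3 h under that scaling.

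The genotypes did not differ beyond the threshold in any of the 8 genes in microglia-like cells, where 61 of all genes (0.476%) passed. With edgeR, 1350 of all genes had an unadjusted p below 0.05. Fth1 was lower in Lyz2-cre than in fl/fl mice at each of the 3 times, with a log2 difference of -0.34 ± 0.09 (adjusted p = 0.221) and an interval of -0.54 to -0.14. Ftl1 was also lower in Lyz2-cre mice at each time, by -0.35 ± 0.09 (adjusted p = 0.213), with an interval of -0.55 to -0.14. DESeq2 called both genes lower in Lyz2-cre mice (Fth1 -0.35, adjusted p = 0.0224; Ftl1 -0.36, adjusted p = 0.0225), and so did edgeR with no filter on low counts (adjusted p = 0.0202 for Fth1 and 0.0131 for Ftl1). Fth1 alone also passed without the Lyz2-cre 1 h library (adjusted p = 0.02) and without the fl/fl 1 h library (adjusted p = 0.0373). The other 6 genes had differences from -0.50 (Mt2) to -0.01 (Ireb2), with adjusted p from 0.538 to 0.952. Their intervals ran as wide as -3.01 to 2.01 for Mt2 and -1.29 to 0.92 for Mt1, so differences of that size would not have been detected.

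Within the microglia-like class the metallothionein transcripts at 3 h lay mostly in 2 of the 11 clusters. Cluster 16 was led by Spp1, Ednrb and Cd14 besides Mt2, and cluster 17 by Gdf15, Tnfrsf12a, Hbegf and Srxn1. These clusters were picked after their values were seen, so their levels are a description. At 3 h, Mt1 stood at 1965 CPM in cluster 16 in Lyz2-cre mice and at 1829 CPM in fl/fl mice, and in cluster 17 at 1542 CPM in Lyz2-cre mice and 1427 CPM in fl/fl mice. In cluster 9, led by Lars2 and with fewer UMIs per cell, Mt1 at 3 h was 112 CPM in Lyz2-cre mice and 97.5 CPM in fl/fl mice, which is within the range of the naive libraries. Clusters 16 and 17 held 2335 of 7324 Lyz2-cre cells and 2052 of 4748 fl/fl cells at 3 h, and 79.2% of the Mt1 UMIs of Lyz2-cre and 85.6% of those of fl/fl microglia-like cells. They held 92.9% and 94.9% of the Mt2 UMIs in Lyz2-cre and fl/fl mice at 3 h. At 1 h the pair of clusters held 47 of 7025 Lyz2-cre cells and 347 of 6880 fl/fl cells. They then held 4.87% of the Mt1 UMIs in Lyz2-cre and 26.9% in fl/fl mice, and 15.3% and 45.4% of the Mt2 UMIs. In naive mice they held 0.824% of the Mt1 UMIs in Lyz2-cre and 0.629% in fl/fl mice, from 7 cells in each library.

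**Figure D2:**
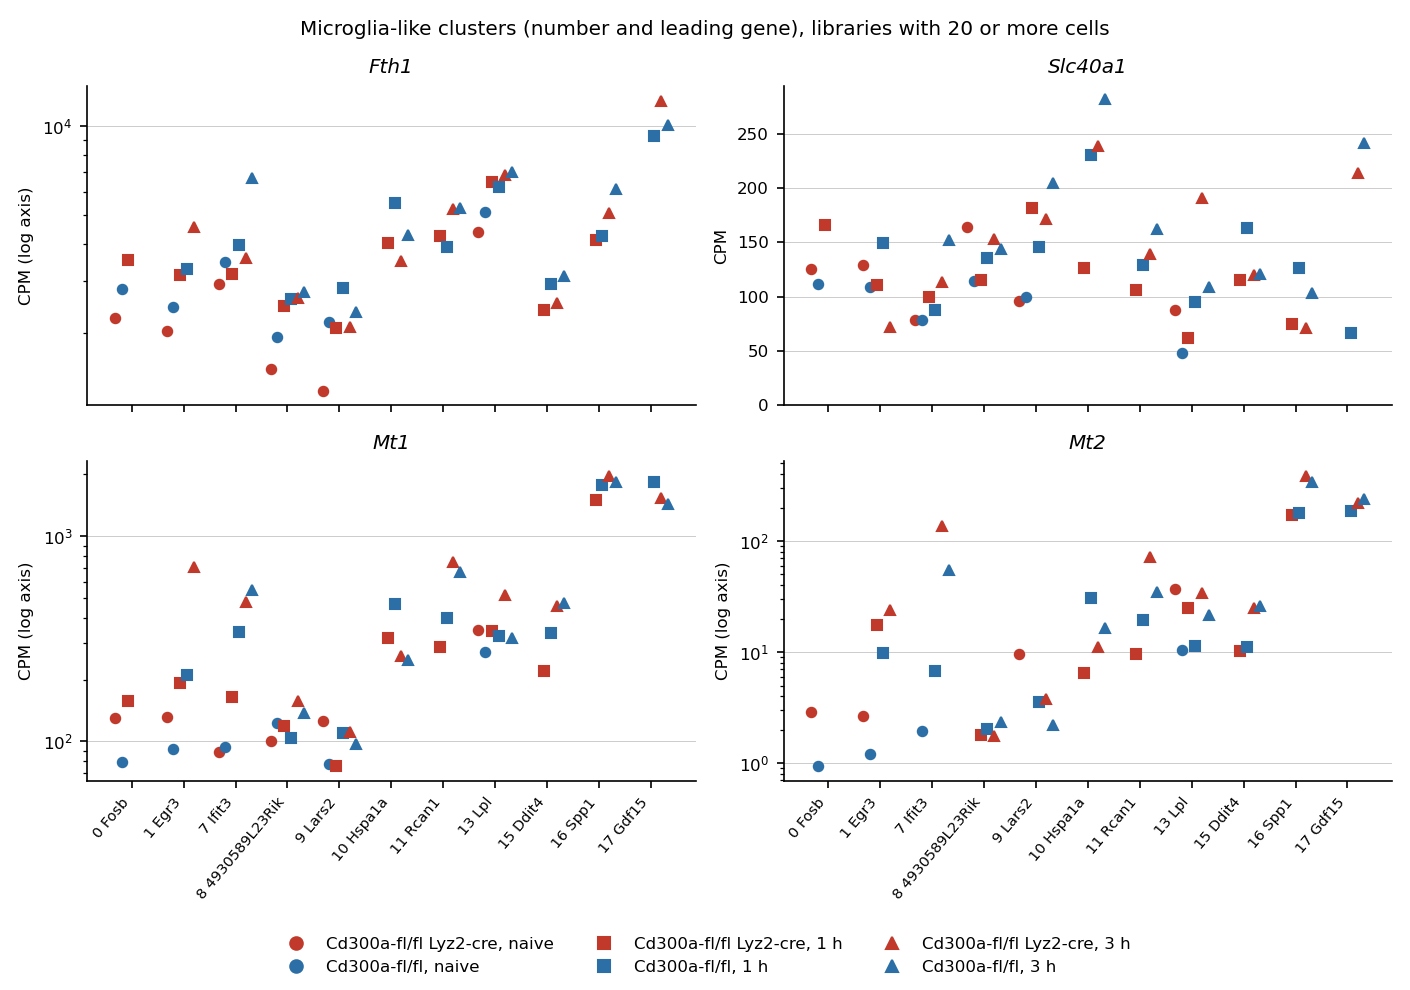
Levels of Fth1, Slc40a1, Mt1 and Mt2 in CPM by microglia-like cluster (number and leading gene on the horizontal axis) in libraries with 20 or more cells of the cluster; each point is 1 library, log axes except for Slc40a1, and sums with 0 UMIs are not drawn on log axes. Mt1 and Mt2 stand highest in clusters 16 and 17, Fth1 in cluster 17 and Slc40a1 at 3 h in clusters 10 and 17.

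Ferritin had another pattern over clusters. Fth1 at 3 h stood at 12209 CPM in cluster 17 in Lyz2-cre mice and at 10065 CPM in fl/fl mice, and at 5068 CPM and 6129 CPM in cluster 16 in Lyz2-cre and fl/fl mice. Cluster 13, led by Lpl, Apoe, Cst7 and Axl, was high in naive brain too, at 4376 CPM in Lyz2-cre mice and 5119.6 CPM in fl/fl mice. In that cluster Mt1 was 349 CPM and 273 CPM in naive Lyz2-cre and fl/fl mice, above the class as a whole. Of the clusters with 20 or more cells, Tfrc at 3 h was highest in cluster 17, at 30.2 CPM in Lyz2-cre mice and 41.6 CPM in fl/fl mice. Slc40a1 at 3 h parted the clusters the other way from Mt1 in cluster 16, with 71.2 CPM in Lyz2-cre and 103 CPM in fl/fl mice there, against 239 CPM and 282 CPM in cluster 10, which was led by the heat shock genes Hspa1a and Hspa1b.

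Levels were recomputed without clusters 16 and 17, an alternative added after seeing the data. At 3 h these clusters held 59.3% of the Fth1 UMIs in Lyz2-cre mice and 71.9% in fl/fl mice. Leaving them out was thus bound to lower Fth1 at 3 h, and the remaining levels are a description and no test. Fth1 in the remaining microglia-like cells stood at 2163, 3314 and 3049 CPM in Lyz2-cre mice in the naive state, at 1 h and at 3 h, and at 2694, 3570.3 and 3518 CPM in fl/fl mice, so the 1 h and 3 h libraries then overlapped. Mt1 stood at 134, 196 and 309.5 CPM in Lyz2-cre mice and 90.2, 285 and 289 CPM in fl/fl mice, and its 3 h levels remained above both naive libraries. In fl/fl mice its 1 h and 3 h levels were then close. Mt2 stood at 3.32, 6.00 and 16.6 CPM in Lyz2-cre mice and 1.29, 12.9 and 16.1 CPM in fl/fl mice. Tfrc stood at 6.64, 6.04 and 9.52 CPM in Lyz2-cre mice and 6.07, 4.70 and 12.7 CPM in fl/fl mice. Slc40a1 stood at 126, 111 and 182 CPM in Lyz2-cre mice and 107, 139.7 and 202 CPM in fl/fl mice, with both 3 h libraries still highest. The lower Fth1 level of Lyz2-cre mice was present at each time without these clusters, and likewise for Ftl1, at 2013, 2284 and 2331 CPM in Lyz2-cre mice and 2335, 2604 and 2601 CPM in fl/fl mice.

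Cells were thinned to 2000 UMIs each to compare single cells at 1 depth, which left out the shallower cells and kept 4400 to 6858 microglia-like cells per library. At least 1 Mt1 UMI was seen in 20.7%, 26.7% and 49.2% of Lyz2-cre cells in the naive state, at 1 h and at 3 h, and in 15.2%, 35.3% and 49.8% of fl/fl cells. At 3 h the exact 95% binomial intervals were 47.9% to 50.4% in Lyz2-cre mice and 48.4% to 51.3% in fl/fl mice. Before thinning the shares were 42.3%, 42.1% and 58.8% in Lyz2-cre and 30%, 52.2% and 61.4% in fl/fl mice. Beside them, the shares of thinned T cell-like cells with an Mt1 UMI were 1.94%, 1.04% and 7.84% in Lyz2-cre mice and 0.431%, 1.84% and 2.01% in fl/fl mice, at median depths of 4478.5 to 5253.5 UMIs per cell before thinning, against 3905 to 5199 in microglia-like cells. The Mt1 shares in microglia-like cells were above those of T cell-like cells in every library, with the highest at 3 h.

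At least 1 Mt2 UMI was seen in 0.553%, 1.12% and 12.4% of thinned Lyz2-cre cells and in 0.24%, 3.35% and 13.6% of thinned fl/fl cells. For Fth1, which nearly every cell held, the median was 4, 5 and 6 UMIs in Lyz2-cre cells and 5, 6 and 8 UMIs in fl/fl cells. The 90th percentile was 8, 13 and 20 Fth1 UMIs in Lyz2-cre and 10, 14 and 26 in fl/fl mice, so the upper end of the distribution moved more than its middle. Concentration of Mt1 was read before thinning, over all microglia-like cells and so at unequal depths. The tenth of cells with the most Mt1 then held 45.3%, 52.2% and 59.5% of Mt1 UMIs in Lyz2-cre mice and 56.2%, 54.9% and 55.7% in fl/fl mice.

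**Figure D3:**
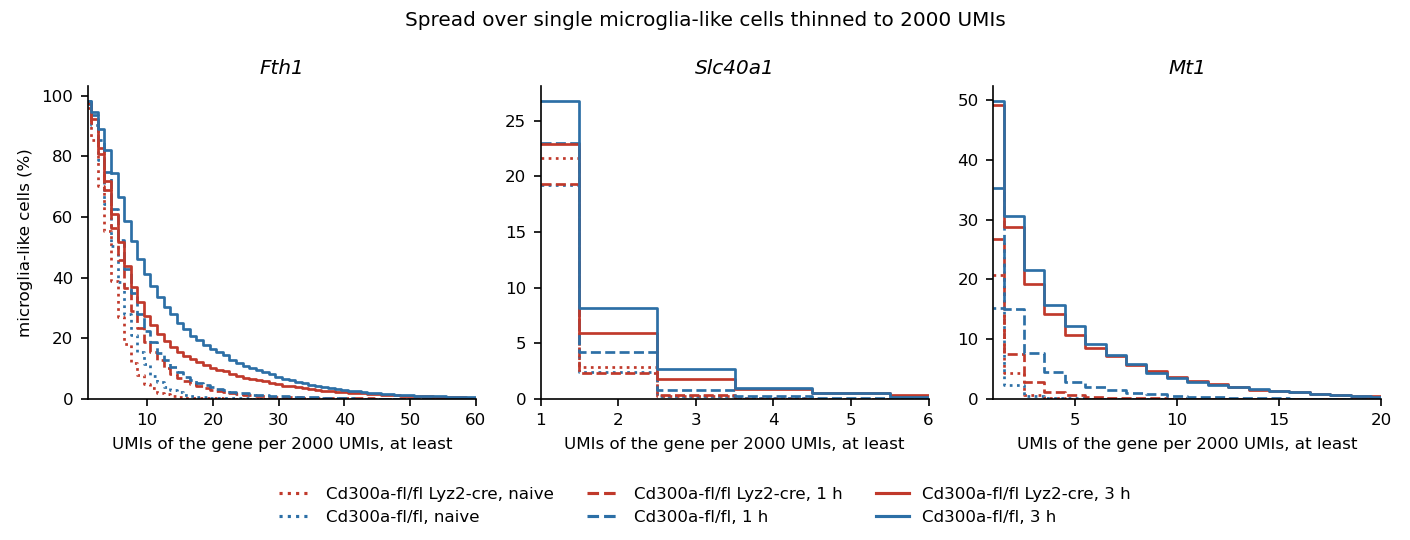
Share of microglia-like cells, thinned to 2000 UMIs, that held at least the number of UMIs of Fth1, Slc40a1 or Mt1 on the horizontal axis; each line is 1 library (red Lyz2-cre, blue fl/fl; dotted naive, dashed 1 h, solid 3 h). The solid Mt1 lines start at 49.2% in Lyz2-cre and 49.8% in fl/fl mice at 1 UMI, above all other libraries, and the Slc40a1 lines lie close together.

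Across thinned microglia-like cells of a library, Mt1 and Mt2 had Pearson correlations of 0.02, 0.17 and 0.56 in Lyz2-cre mice in the naive state, at 1 h and at 3 h, and 0.03, 0.32 and 0.57 in fl/fl mice. Those of Fth1 with Ftl1 were 0.13, 0.34 and 0.39 in Lyz2-cre mice and 0.14, 0.32 and 0.47 in fl/fl mice. Those of Fth1 with Slc40a1 lay within 0.04 of 0 in all 6 libraries, and in counts this sparse that is no finding. The correlations are over 4400 to 6858 cells that share a library and a depth, and those of Mt1 with Mt2 and of Fth1 with Ftl1 were highest at 3 h. Before thinning, Mt2 held 102 UMIs in naive Lyz2-cre and 37 in naive fl/fl microglia-like cells, against 4190 and 3185 at 3 h. A correlation of sparse counts depends on their level too, so these rises cannot be told apart from the rises in level.

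**Figure D4:**
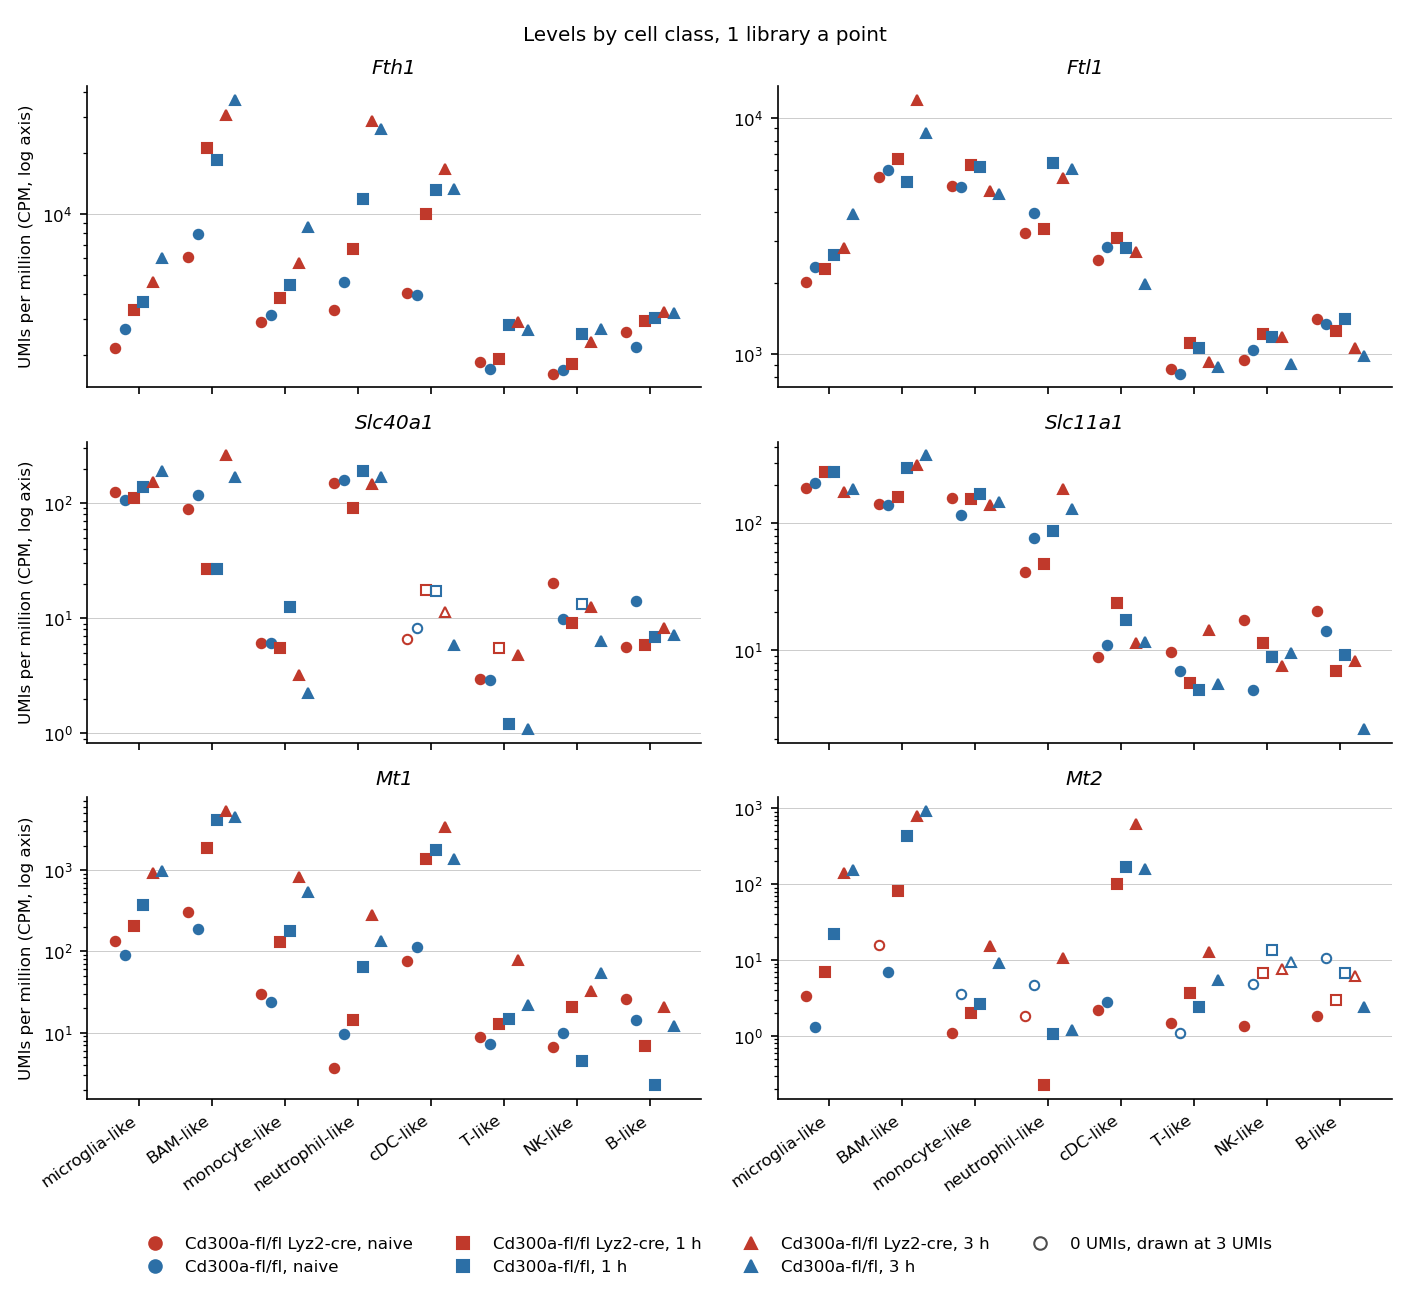
Levels of 6 of the genes in CPM by marker-defined class (log axes), each point 1 library, red Lyz2-cre and blue fl/fl, circles naive, squares 1 h and triangles 3 h; open symbols stand for 0 UMIs and are drawn at the level of 3 UMIs. Fth1 reaches 26123 to 36475 CPM at 3 h in border-associated macrophage-like and neutrophil-like cells, and Slc40a1 is low in monocyte-like and lymphoid-like cells.

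The classes differed in their levels of the members. At 3 h Fth1 stood at 30810.2 CPM in Lyz2-cre and 36475 CPM in fl/fl border-associated macrophage-like cells, the macrophages of the meninges and vessels. Neutrophil-like cells followed, at 28557 CPM in Lyz2-cre mice and 26123 CPM in fl/fl mice, and then conventional dendritic cell-like cells, at 16516 CPM and 13219 CPM in Lyz2-cre and fl/fl mice. Monocyte-like and microglia-like libraries overlapped below these, and B, T and NK cell-like libraries lay between 2329 and 3266 CPM, those of T and NK cell-like cells overlapping. The order is of class sums at a single time and was not tested.

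Slc11a1 was low in lymphoid classes. B, T and NK cell-like sums ranged from 2.39 to 20.5 CPM, against 116 to 254 CPM in microglia-like and monocyte-like sums. After thinning, 30.5%, 38.7% and 28.4% of Lyz2-cre and 33.1%, 38.5% and 28.5% of fl/fl microglia-like cells held an Slc11a1 UMI in the naive state, at 1 h and at 3 h. The T cell-like shares, which serve as background, were 1.94%, 2.08% and 1.96% in Lyz2-cre and 0.216%, 0.613% and 0.671% in fl/fl mice.

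Slc40a1 was found in microglia-like, neutrophil-like and border-associated macrophage-like cells and hardly in monocyte-like cells. Monocyte-like sums held 6.05, 5.58 and 3.21 CPM in Lyz2-cre mice and 6.05, 12.5 and 2.23 CPM in fl/fl mice, from 5 to 22 UMIs each. Neutrophil-like sums held 151, 91.3 and 146 CPM in Lyz2-cre mice and 160.3, 191 and 170.2 CPM in fl/fl mice. After thinning, 23.2%, 17.1% and 24.8% of Lyz2-cre and 24.8%, 27.7% and 26.7% of fl/fl neutrophil-like cells held an Slc40a1 UMI, against 0.206% to 1.25% of monocyte-like cells. Tfrc was highest in the few plasmacytoid dendritic cell-like cells of naive brain, at 91.7 CPM from 9 UMIs in Lyz2-cre and 140.4 CPM from 11 UMIs in fl/fl mice.

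In monocyte-like cells Fth1 and Mt1 rose at both times and Mt2 at 3 h, whereas Ftl1 did not pass at either time. At 1 h, 2 of the 7 members tested passed, where 2.2% of all genes passed. At 3 h, 3 of 7 passed, all higher, where 28.3% of all genes passed and 14.8% were higher. For 3 h against 1 h, 3 of 7 passed, where 20.5% of all genes passed. Tfrc was below the filter on low counts.

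Fth1 stood at 2914, 3818 and 5678 CPM in Lyz2-cre monocyte-like cells and at 3157, 4461 and 8546 CPM in fl/fl ones. The 3 times did not overlap. The change was 0.51 ± 0.12 (adjusted p = 0.0475) at 1 h and 1.40 ± 0.12 (adjusted p = 1.03e-05) at 3 h. The 1 h call was lost under DESeq2 (adjusted p = 0.142), with library totals only (0.0708), with time alone in the model (0.2), and with each other way of choosing cells (adjusted p from 0.0543 with no doublet removal to 0.0739 with a stricter cell filter). It was also lost without fl/fl naive (0.0775), Lyz2-cre 1 h (0.214), fl/fl 3 h (0.0573) or Lyz2-cre 3 h (0.0598), each an adjusted p. The 3 h call held under every setting run.

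Ftl1 in monocyte-like cells stood at 5157, 6281 and 4874 CPM in Lyz2-cre mice and at 5070.4, 6187 and 4762 CPM in fl/fl mice. In CPM the 1 h libraries were the highest pair and the 3 h libraries the lowest, and the fitted changes, which use TMM factors, were 0.36 ± 0.09 (adjusted p = 0.0643) and 0.11 ± 0.09 (adjusted p = 0.393) against naive mice. With library totals only, the 3 h change had the other sign, at -0.09, and that scaling moved the median of all genes to -0.22. The ratio of Fth1 to Ftl1 UMIs was 0.565, 0.608 and 1.17 in Lyz2-cre and 0.623, 0.721 and 1.79 in fl/fl monocyte-like cells, highest at 3 h in both.

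Mt1 stood at 30.2, 130.3 and 827 CPM in Lyz2-cre monocyte-like cells and at 24.2, 179.8 and 532 CPM in fl/fl ones. No times overlapped, and at 3 h the Lyz2-cre library was the higher. The change was 2.56 ± 0.28 (adjusted p = 0.00252) at 1 h, 4.81 ± 0.27 (adjusted p = 1.16e-06) at 3 h and 2.25 ± 0.22 (adjusted p = 8.55e-05) for 3 h against 1 h. The 1 h call was lost without fl/fl naive (adjusted p = 0.0501) and without Lyz2-cre naive (adjusted p = 0.109).

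Mt2 held 2, 4 and 106 UMIs in Lyz2-cre monocyte-like cells and 0, 3 and 45 in fl/fl ones in the naive state, at 1 h and at 3 h, which gave 15.5 CPM at 3 h in Lyz2-cre and 9.13 CPM in fl/fl mice. Both 3 h sums were above the rest, and the 3 h change passed the test (adjusted p = 0.000428). Its fitted size against 2 naive UMIs in all depends on the prior count and is not given. For 3 h against 1 h the call (adjusted p = 0.00251) was lost under DESeq2 (0.0654), without Lyz2-cre 1 h (0.148) and without Lyz2-cre 3 h (0.179).

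Microglia markers in the monocyte-like sums stood at 1936, 2017 and 479 CPM in Lyz2-cre mice and at 3144, 1868 and 519.7 CPM in fl/fl mice over the 3 times. They were lowest at 3 h, as in microglia-like cells, and their part in the class-level changes was not tested. The class is made of cluster 2, led by Saa3, Vcan and Fn1, and cluster 3, led by Ace, Ear2 and Treml4. Cluster 2 held 34.7%, 47.1% and 83.5% of the class in Lyz2-cre mice in the naive state, at 1 h and at 3 h, and 45.5%, 47.5% and 83.5% in fl/fl mice, and the part of this makeup in the class-level changes was not tested. Mt1 at 3 h stood at 909.9 CPM in cluster 2 in Lyz2-cre mice and 582 CPM in fl/fl mice. In cluster 3 it stood at 97.5 CPM and 111 CPM in Lyz2-cre and fl/fl mice at 3 h, above 11.8 CPM and 20.2 CPM in the naive libraries of the same genotypes. Slc11a1 was higher in cluster 3, at 291 CPM and 343 CPM at 3 h in Lyz2-cre and fl/fl mice, than in cluster 2, at 123 CPM and 125 CPM.

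In neutrophil-like cells 4 members rose at 3 h, Fth1, Ftl1, Slc11a1 and Mt1, of 6 tested. At that time 29.7% of all genes passed and 18% were higher. For 3 h against 1 h, 3 of 6 passed, where 26.6% of all genes passed. None of the 6 passed at 1 h with edgeR, where 1.01% of all genes passed and 905 of 7695 had an unadjusted p below 0.05. DESeq2 called Fth1 at 1 h (adjusted p = 0.000133). Tfrc and Mt2 were below the filter on low counts.

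**Figure D5:**
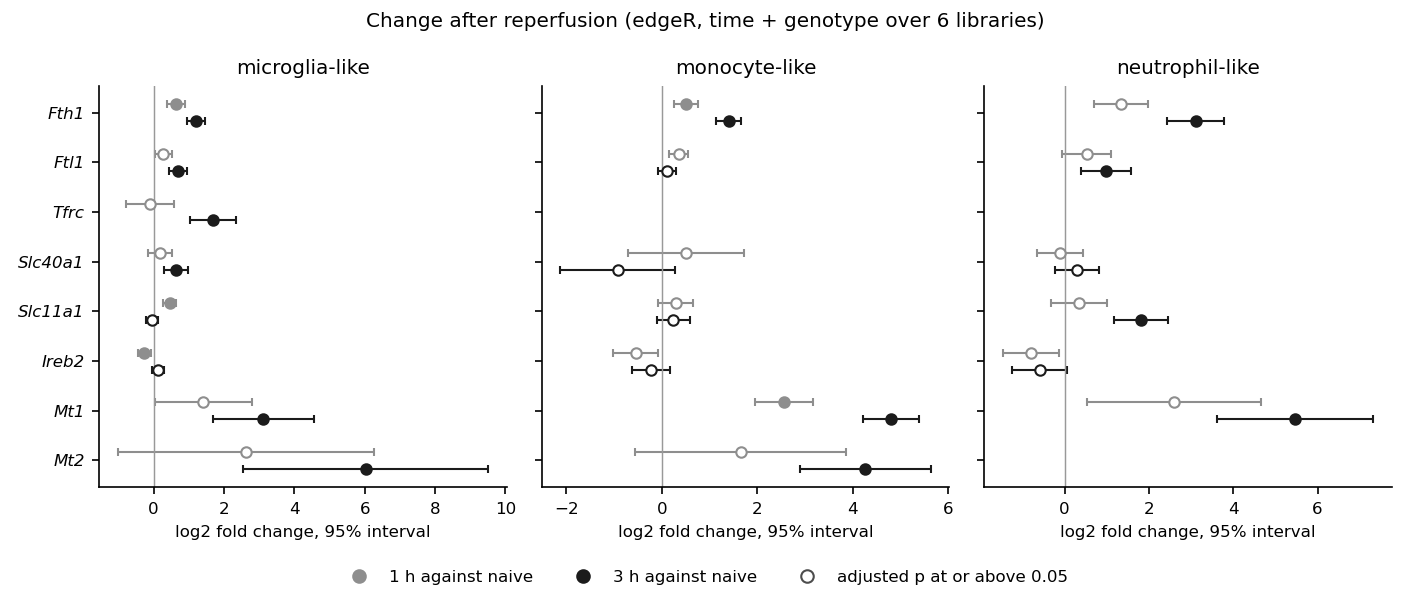
Log2 fold changes of the members in microglia-like, monocyte-like and neutrophil-like cells at 1 h (grey) and 3 h (black) against naive, from edgeR on 6 libraries with time and genotype in the model; bars are 95% intervals and open symbols have an adjusted p at or above 0.05. Genes below the filter on low counts have no symbol, and the horizontal scale differs between classes.

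Fth1 stood at 3323, 6688 and 28557 CPM in Lyz2-cre neutrophil-like cells and at 4601, 11857 and 26123 CPM in fl/fl ones. No times overlapped. The change was 1.34 ± 0.29 (adjusted p = 0.0553) at 1 h, 3.10 ± 0.31 (adjusted p = 3.71e-05) at 3 h and 1.77 ± 0.30 (adjusted p = 0.00162) for 3 h against 1 h. Ftl1 stood at 3254, 3392 and 5574 CPM in Lyz2-cre mice and at 3965, 6402 and 6037 CPM in fl/fl mice, where the fl/fl 1 h library was the highest. Its 3 h change was 0.98 ± 0.27 (adjusted p = 0.017). That call was lost with library totals only (adjusted p = 0.0964), with no doublet removal (0.58, adjusted p = 0.155), and without fl/fl naive (adjusted p = 0.331) or Lyz2-cre naive (adjusted p = 0.174). The ratio of Fth1 to Ftl1 UMIs was 1.02, 1.97 and 5.12 in Lyz2-cre mice and 1.16, 1.85 and 4.33 in fl/fl mice.

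Slc11a1 stood at 41.4, 47.9 and 186 CPM in Lyz2-cre neutrophil-like cells and at 76.2, 86.7 and 130.0 CPM in fl/fl ones. Both 3 h libraries were above the other 4. The change at 3 h was 1.80 ± 0.29 (adjusted p = 0.000926), lost without Lyz2-cre naive (adjusted p = 0.0619). In microglia-like cells the 3 h value was -0.05, and the difference between the classes was not tested. Mt1 stood at 3.71, 14.2 and 278 CPM in Lyz2-cre mice and at 9.52, 64.5 and 136 CPM in fl/fl mice, starting from 6 UMIs in each naive library. No times overlapped. Its change was 5.47 ± 0.79 (adjusted p = 0.00225) at 3 h, lost with a stricter cell filter (adjusted p = 0.119). Mt2 held 0, 1 and 29 UMIs in Lyz2-cre mice and 0, 1 and 4 UMIs in fl/fl mice, too few for the test.

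Mt1 in neutrophil-like cells was lower in Lyz2-cre than in fl/fl mice in the naive state and at 1 h and higher at 3 h. The genotype difference was -0.33 ± 0.55 (adjusted p = 0.965) over all 6 libraries, and -1.71 without Lyz2-cre 3 h (adjusted p = 0.000278) or -1.70 without fl/fl 3 h (adjusted p = 0.000635). No member passed for genotype in neutrophil-like cells with all 6 libraries, where 0.026% of all genes passed and 404 had an unadjusted p below 0.05. None passed in monocyte-like cells, where 0.0783% of all genes passed and 413 had an unadjusted p below 0.05. DESeq2 called none in either class, but its share of all genes is not given, so that is no result about the members. Fth1 in monocyte-like cells was -0.33 ± 0.10 (adjusted p = 0.762), and -0.42 without fl/fl naive (adjusted p = 0.0472).

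Different clusters held most neutrophil-like cells at different times. Clusters 14 (led by Retnlg, Asprv1 and Slpi) and 19 (Ltf, Lcn2 and Ngp) held nearly all of them in naive brain and at 1 h, and cluster 21 (Ifitm1, Gm5483 and Cxcr2) held 917 of 998 Lyz2-cre and 963 of 1057 fl/fl cells at 3 h. Cluster 22, with 35 cells, held neutrophil markers but was led by Cd36, Ace and Treml4, and was left unnamed. Within cluster 14, Fth1 stood at 6898, 13861 and 17940.2 CPM in Lyz2-cre mice in the naive state, at 1 h and at 3 h, and at 7581, 15113 and 19412 CPM in fl/fl mice. The order of times in that cluster was that of the class. In cluster 21, Fth1 stood at 31369 CPM in Lyz2-cre and 28498 CPM in fl/fl mice, and in cluster 19 at 2915 CPM and 5658 CPM at 3 h. Mt1 at 3 h was 312 CPM and 152 CPM in cluster 21 of Lyz2-cre and fl/fl mice, against 32.7 CPM and 43.5 CPM in cluster 14. Slc40a1 at 3 h was higher in cluster 14, at 447 CPM and 356 CPM in Lyz2-cre and fl/fl mice, than in cluster 21, at 141 CPM and 172 CPM. The part of the cluster makeup in the class-level changes was not tested. Microglia markers in neutrophil-like sums stood at 921, 1685 and 563 CPM in Lyz2-cre mice and 2785, 3149 and 339.7 CPM in fl/fl mice, lowest at 3 h.

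In T and NK cell-like cells Fth1 and Mt1 rose at 3 h. In T cell-like cells Fth1 stood at 1839.8, 1918 and 2903 CPM in Lyz2-cre mice and at 1708, 2816 and 2667 CPM in fl/fl mice, with both 3 h libraries above both naive ones. The 3 h change was 0.78 ± 0.17 (adjusted p = 0.0267), and Mt1 changed by 2.52 ± 0.44 (adjusted p = 0.00631), from 12, 7 and 48 UMIs in Lyz2-cre and 20, 12 and 20 UMIs in fl/fl mice. These 2 were the members that passed of 4 tested at 3 h, where 5.55% of all genes passed. Both were lost with a stricter cell filter (adjusted p = 0.313 for Fth1 and 0.167 for Mt1), Fth1 also without fl/fl naive (adjusted p = 0.197) and Mt1 without Lyz2-cre 3 h (1.63, adjusted p = 0.0613). Microglia markers in the T cell-like sums stood at 1612, 1183 and 1874 CPM in Lyz2-cre mice and at 1301, 651 and 543 CPM in fl/fl mice, and their part in these changes was not tested.

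In NK cell-like cells Fth1 stood at 1619.9, 1801 and 2329 CPM in Lyz2-cre mice and at 1687, 2541 and 2679 CPM in fl/fl mice. Its 3 h change was 0.69 ± 0.14 (adjusted p = 0.0005), and Mt1 changed by 2.44 ± 0.58 (adjusted p = 0.00281) on 1 to 17 UMIs per sum. These were 2 of 4 tested, where 6.19% of all genes passed. DESeq2 called Fth1 and gave no adjusted p for Mt1. Neither passed without fl/fl naive (adjusted p = 0.348 for Fth1 and 0.0925 for Mt1), and Mt1 was also lost without Lyz2-cre naive (adjusted p = 0.136) and without fl/fl 3 h (adjusted p = 0.518). Microglia markers in the NK cell-like sums stood at 2555, 1815 and 840.3 CPM in Lyz2-cre mice and at 1751, 947 and 977 CPM in fl/fl mice.

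In B cell-like cells the ferritin genes parted. Fth1 stood at 2601, 2941 and 3266 CPM in Lyz2-cre mice and at 2183, 3062 and 3245 CPM in fl/fl mice, with a 3 h change of 0.38 ± 0.12 (adjusted p = 0.02). Ftl1 stood at 1408, 1257 and 1059 CPM in Lyz2-cre mice and at 1334, 1404 and 985 CPM in fl/fl mice, with both 3 h libraries below the other 4, and it fell by 0.49 on the log2 scale at 3 h (adjusted p = 0.00197). These were 2 of the 4 tested, where 11.5% of all genes passed. Both calls were lost under DESeq2 (adjusted p = 0.11 for Fth1 and 0.0531 for Ftl1), with no doublet removal (adjusted p = 0.121 and 0.481), and without either of the naive libraries or that of fl/fl at 3 h, and that of Fth1 also without Lyz2-cre 3 h, with adjusted p up to 0.401 over these fits. A stricter cell filter left 3 to 18 B cell-like cells in 4 of the libraries, fewer than the minimum of 20, and was not run there. The fl/fl 1 h B cell-like sum held 6249 CPM of neutrophil markers, against 28.3 to 354 CPM in the other 5.

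With edgeR, 0 of 4 members passed at 1 h in T, NK or B cell-like cells, where 2.82%, 4.55% and 6.17% of all genes passed in T, NK and B cell-like cells and 1331, 968 and 981 had an unadjusted p below 0.05. For 3 h against 1 h, 0 of 4 passed in T and NK cell-like cells, where 2.72% and 2.65% of all genes passed and 1485 and 943 had an unadjusted p below 0.05. In B cell-like cells 1 of 4 passed there, Ftl1 (adjusted p = 0.0148), where 13.5% of all genes passed, and it was lost under DESeq2 (adjusted p = 0.136), with no filter on low counts (adjusted p = 0.0601), with no doublet removal (adjusted p = 0.349) and in each of the 6 fits that left out 1 library (adjusted p from 0.0634 to 0.188). No member differed between the genotypes with edgeR in T, NK or B cell-like cells, where 0.0633%, 0.185% and 1% of all genes passed and 502, 374 and 379 had an unadjusted p below 0.05. DESeq2 called 0 members in each of these comparisons. Its share of all genes is not given, so these counts are no result about the members.

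Border-associated macrophage-like and conventional dendritic cell-like cells were too few in some libraries for a test, at 17 to 51 cells each. Both classes were parts of a mixed cluster that was clustered a second time. Fth1 stood at 6104, 21041 and 30810.2 CPM in Lyz2-cre border-associated macrophage-like cells and at 7941, 18434 and 36475 CPM in fl/fl ones, and Mt1 at 304, 1854 and 5308 CPM in Lyz2-cre and 188, 4166 and 4498 CPM in fl/fl mice. These were the highest Mt1 levels of any class in the 1 h and 3 h libraries. Mt2 was listed at 0 UMIs in the naive Lyz2-cre library, where 3 UMIs would be 15.7 CPM, and stood at 789 CPM in Lyz2-cre and 922 CPM in fl/fl mice at 3 h. The makeup of the class changed with time. Part 502, led by Pf4, Mrc1 and Ms4a7, gave 37 of 39 Lyz2-cre and 27 of 27 fl/fl cells in naive mice. Part 503, led by Pf4, Ccl24 and Ccl7, gave 44 of 51 Lyz2-cre and 42 of 45 fl/fl cells at 3 h. What this change contributed to the levels was not tested. In conventional dendritic cell-like cells Mt1 stood at 75.1, 1355 and 3345 CPM in Lyz2-cre mice and at 114, 1749 and 1372 CPM in fl/fl mice. The order of times differed between the genotypes there, with fl/fl highest at 1 h. Part 505, led by Cd209a and Mgl2, gave 39 Lyz2-cre and 32 fl/fl cells in naive mice and 2 and 3 at 3 h. Part 510, led by Ccl17 and Ccl22, gave 3 and 4 cells in naive mice and 16 and 9 at 3 h. What this makeup contributed to the levels was not tested. At resolution 2 this class was wider, with 56 to 159 cells a library.

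Of 32 other genes of haem and iron handling, 28 were tested in microglia-like cells. At 1 h, 8 were higher and 1 lower, with a median change of 0.25 against -0.01 over all genes, and 32.1% of the list passed beside 26.7% of all genes. Hmox1, the inducible haem oxygenase that releases iron from haem, stood at 25.7, 72.0 and 363 CPM in Lyz2-cre mice and at 34.5, 164 and 651 CPM in fl/fl mice, with no overlap between times, and rose by 1.98 ± 0.17 (adjusted p = 0.000811) at 1 h and 4.11 ± 0.18 (adjusted p = 2.33e-05) at 3 h. The next largest rises at 1 h were those of Nfe2l2 (0.96), which encodes the oxidant response factor NRF2, Hfe (0.62), a regulator of transferrin receptor use, and the transferrin gene Trf (0.51). Pcbp2, an iron chaperone gene, was the gene that fell, by 0.26 on the log2 scale.

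At 3 h, 9 of the 28 were higher and 7 lower, with a median of 0.15 against -0.02 over all genes, and 57.1% of the list passed beside 47.6% of all genes. The importer genes Slc39a14 (2.11) and Slc11a2 (1.60) and the haem-sensing repressor gene Bach1 (1.93) rose, after Hmox1. Slc11a2 stood at 18.0, 19.6 and 40.4 CPM in Lyz2-cre mice and 18.9, 20.2 and 67.8 CPM in fl/fl mice. The constitutive haem oxygenase gene Hmox2 (-0.83), the haem transporter gene Slc48a1 (-0.73), the ferrochelatase gene Fech (-0.43) and Trf (-0.37) had the largest falls. Trf, unlike at 1 h, stood at 659 CPM in Lyz2-cre and 638 CPM in fl/fl mice at 3 h, against 894 CPM and 880.3 CPM in naive mice of the same genotypes. No gene of this list differed between genotypes with edgeR in microglia-like cells, and the share of all genes was 0.476%.

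Of 16 other zinc and metal response genes, 15 were tested in microglia-like cells. At 1 h, 5 were higher and 0 lower, with a median of 0.20 and 33.3% passing beside 26.7% of all genes, led by the zinc transporter genes Slc30a6 (0.61), Slc30a1 (0.45), Slc39a7 (0.36) and Slc39a6 (0.34). At 3 h, 6 were higher and 1 lower, with a median of 0.06, a share of called genes of 46.7% beside 47.6% of all genes. Slc30a1, the zinc exporter of the cell surface and a known target of MTF1, stood at 10.0, 11.0 and 21.9 CPM in Lyz2-cre and 10.5, 15.2 and 23.0 CPM in fl/fl mice and rose by 1.21 ± 0.12 (adjusted p = 5.09e-05) at 3 h. Mt3, a further metallothionein gene, had 1.70 ± 0.58 (adjusted p = 0.0342) at levels between 0.143 and 0.722 CPM. Slc39a10 (0.53) and Slc39a6 (0.44) rose as well, and Slc39a13 fell by 0.29 on the log2 scale.

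In monocyte-like cells 7 of 27 iron genes were higher and 3 lower at 3 h (37.0% of the list, beside 28.3% of all genes), and 1 of 13 zinc genes was higher and 1 lower (15.4%). In neutrophil-like cells 6 of 22 iron genes were higher and 2 lower at 3 h (36.4% of the list, beside 29.7% of all genes), with a median of 0.16 against -0.06 over all genes. With edgeR 0 of 9 zinc genes passed there, where 3174 of 7695 genes had an unadjusted p below 0.05.

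The genes most like each member were sought over 36 sums, those of 6 libraries in the 6 tested classes, by Pearson correlation of log2(CPM + 1) among 12813 genes. The points share libraries and differ mainly by class, so the values describe these sums only. For Fth1 they were Tiparp (0.92), Gm37800 (0.92) and Rhov (0.90), and for Ftl1 Atp6v1b2 (0.96), Csf2ra (0.95) and Alox5ap (0.95). Slc40a1 was most like Cd63 (0.93), Fmnl2 (0.89) and Oscp1 (0.88), and Slc11a1 most like Lamp2 (0.96), Mpeg1 (0.96) and Creg1 (0.94). Mt1 was most like Cd14 (0.90), Zfand5 (0.88) and Vps26a (0.86), and Mt2 most like Gm26576 (0.83), Plet1 (0.83) and Hspa1l (0.82). Tfrc, with its few UMIs, reached 0.79 with Cwf19l2 and 0.78 with Lnx2, and Ireb2 reached 0.77 with Ino80d and 0.76 with Gtf2a1 and Exoc8. Among the members themselves, Ftl1 and Slc11a1 (0.86), Mt1 and Mt2 (0.80), Mt1 and Slc11a1 (0.75) and Fth1 and Ftl1 (0.73) had the highest correlations, and Tfrc had its lowest with Ftl1 (-0.59).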

How the data were processed

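The data were raw UMI counts per gene and cell barcode from 6 libraries, deposited by the authors as filtered matrices. Per the submitters' processing notes the reads were handled with Cell Ranger 3.0.2 on mm10, and per the labels' protocols CD45+ cells negative for propidium iodide were sorted from 3 pooled brains a library. The 8 genes, the pathway lists and the tests were chosen with earlier results of these data known.

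Barcodes were dropped below 300 detected genes or above 10% mitochondrial UMIs, and the highest-scoring doublets (0.8% for each 1000 cells) were removed. Cells were clustered in Scanpy 1.11.5 (2000 variable genes, 30 components, 15 neighbours, igraph's Leiden method at resolution 1), leaving out the members and both lists. Python 3.11.15, NumPy 2.4.6 and SciPy 1.17.1 were used. Clusters were named from at least 3 detected markers (in 10% of cells), and stayed unnamed where another class led their top 10 genes, a condition extended after cluster 22 was seen. Of 51005 barcodes, 50634 passed and 47103 were used.

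UMIs were summed per library and class where every library had at least 20 cells, and tested in R 4.3.3 with edgeR 4.0.16 (filterByExpr, TMM factors, robust quasi-likelihood fit on time and genotype, 2 residual degrees of freedom). limma 3.58.1 was loaded by edgeR. The test was tested on simulated data with known changes. CPM intervals are exact Poisson intervals at 95%, and 3 UMIs serve as the floor for a count of 0. Intervals cover counting error only. Figures were drawn with Matplotlib 3.10.9, and copies of genes were aligned with Biopython 1.88. All 8 members are described, and of other genes those of the lists with the largest called changes (4 in each direction) and the 3 most alike in pattern are named, apart from 1 that is not reported here. Alternatives were DESeq2 1.42.0, RLE factors, library totals only, no filter on low counts, time without genotype, a stricter cell filter (1000 genes, 5% mitochondrial UMIs), no doublet removal, resolution 2 and leaving out each library.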

Additional observations from a re-analysis of the deposited data

Results flagged for a closer look

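The ratio between times was compared between the genotypes for 98 combinations of member, class and pair of times in which each sum had at least 4 UMIs. The genotypes had opposite signs in 16 of them, and in 3 the 95% counting interval of both ratios excluded 0. The difference was not tested in any of the 3, since each genotype has 1 library a time. Ftl1 in neutrophil-like cells had a log2 ratio of CPM of 0.72 for 3 h over 1 h in Lyz2-cre mice and -0.085 in fl/fl mice. Ftl1 in NK cell-like cells had 0.32 for 3 h over naive in Lyz2-cre mice and -0.20 in fl/fl mice. Slc40a1 in microglia-like cells had -0.19 for 1 h over naive in Lyz2-cre mice and 0.37 in fl/fl mice. The neutrophil-like sums of the genotypes differed in makeup at 1 h. Cluster 19 then held 48.1% of the Lyz2-cre and 14.1% of the fl/fl cells, and cluster 14 held 50.6% and 80.3%. At 3 h cluster 21 held 91.9% and 91.1%. The part of this makeup in the Ftl1 ratios was not tested.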

How the results depend on the processing

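No paired analysis was possible because each combination of genotype and time has 1 library, so the shared replicate number pairs nothing. Log2 changes were recomputed for all members tested in the 3 myeloid classes and for those that passed in T, NK and B cell-like cells. No change that passed the threshold with all 6 libraries had the other sign under a setting run for it. Under settings other than leaving out a library, 638 values kept direction and side of the threshold, 26 lost the call, 25 gained one and 11 changed sign. Settings moved these counts of members called by over 1.5 times, and they stand without the share of all genes called under the same setting. For Lyz2-cre against fl/fl in microglia-like cells (0), DESeq2 gave 2 and no filter on low counts gave 2. For 1 h in monocyte-like cells (2), DESeq2, library totals only, time only, the stricter cell filter, no doublet removal and resolution 2 each gave 1, and for 3 h against 1 h there (3) library totals only gave 5. For 1 h in neutrophil-like cells (0), DESeq2, time only and the stricter filter each gave 1 and no filter on low counts gave 2, and for 3 h against 1 h (3) the stricter filter gave 5. In T cell-like cells no filter on low counts gave 2 at 1 h (0) and 1 for 3 h against 1 h (0), no doublet removal gave 1 for 3 h against 1 h, and the stricter filter gave 0 at 3 h (2). In NK cell-like cells at 1 h (0), RLE factors, the stricter filter and resolution 2 each gave 1 and no doublet removal gave 2, and at 3 h (2) DESeq2 gave 1, with no adjusted p for Mt1. In B cell-like cells library totals only gave 1 at 1 h (0), DESeq2 gave 0 and no doublet removal 1 at 3 h (2), and DESeq2 gave 0 for 3 h against 1 h (1). The stricter filter was not run there, since it left fewer than 20 cells in 4 libraries. The cause of these shifts was not tested.

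Leaving out each library gave 0 to 5 members called at 1 h, 2 to 6 at 3 h, 5 to 7 for 3 h against 1 h and 0 to 1 for genotype in microglia-like cells. The ranges in the same order were 1 to 2, 3 to 3, 2 to 5 and 0 to 1 in monocyte-like cells, 0 to 2, 2 to 5, 3 to 4 and 0 to 1 in neutrophil-like cells, 0 to 2, 1 to 2, 0 to 1 and 0 to 0 in T cell-like cells, 0 to 1, 0 to 2, 0 to 0 and 0 to 0 in NK cell-like cells, and 0 to 0, 0 to 2, 0 to 1 and 0 to 0 in B cell-like cells. The count at 1 h in microglia-like cells was 0 without fl/fl naive and 1 without Lyz2-cre naive, and at 3 h it was 2 without fl/fl naive. Such fits have 1 residual degree of freedom, and the lone library of a time is assumed to vary like the others. Their counts stand without a share of all genes and show only how far the calls move.

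Changes that missed the threshold and changed sign were these. In microglia-like cells the genotype difference of Ireb2 was 0.042 with library totals only. In monocyte-like cells Ftl1 at 3 h was -0.088 with library totals only, Slc40a1 was 0.55 at 3 h and 0.083 for 3 h against 1 h with no doublet removal, Slc11a1 for 3 h against 1 h was 0.011 with the stricter filter, and the genotype difference of Ftl1 was -0.0028 with the stricter filter, -0.011 with no doublet removal and -0.0039 at resolution 2. In neutrophil-like cells Slc11a1 at 1 h was -0.069 with the stricter filter, and the genotype difference of Ireb2 was -0.041 with library totals only and -0.043 with no doublet removal. Library totals only moved the median of all genes by more than 0.1 on the log2 scale in 10 class comparisons, furthest in neutrophil-like cells at 3 h (-0.35).

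Leaving out 1 library also changed the sign of changes that missed the threshold, with ranges on the log2 scale. In microglia-like cells these were Tfrc -0.47 to 0.23, Slc40a1 -0.072 to 0.47 at 1 h, Tfrc -0.39 to 0.18, Ireb2 -0.036 to 0.0076, Mt1 -0.53 to 0.15, Mt2 -0.86 to 0.14 for genotype. In monocyte-like cells these were Slc40a1 -0.13 to 1.32 at 1 h, Ireb2 -0.37 to 0.0050 at 3 h, Slc11a1 -0.16 to 0.074 for 3 h against 1 h, Ftl1 -0.0065 to 0.020, Slc40a1 -0.70 to 0.31, Slc11a1 -0.12 to 0.13, Mt1 -0.23 to 0.56 for genotype. In neutrophil-like cells these were Slc40a1 -0.40 to 0.25 at 1 h, Ireb2 -0.19 to 0.57 for 3 h against 1 h, Ireb2 -0.18 to 0.25, Mt1 -1.71 to 0.67 for genotype.

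Depth limits Tfrc and Mt2 outside microglia-like cells and Mt1 in lymphoid cells, which rest on few UMIs.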
